A study of Mus musculus with 9 samples.

Results

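Astrocytes were followed in the mediobasal hypothalamus (MBH) through 10 genes that mark these cells or carry out their main tasks. The genes were chosen by symbol: Gfap, Aqp4, Slc1a2, Slc1a3, Aldh1l1, Gja1, S100b, Aldoc, Glul and Slc4a4. All 10 passed the filter on low counts, as did 15340 of the 35975 genes that had a transcript in the files. The tissue came from male wild-type C57Bl/6 mice at P21, the age of weaning. Dams of the control group (CTRL, n = 4) drank water. Dams of the emulsifier group (Emul, n = 5) drank water with 1% carboxymethyl cellulose (CMC) and 1% polysorbate 80 (P80), from before pregnancy until weaning. Both additives are emulsifiers, which stabilise mixtures in food. The pups stayed with their dams until P21. Each library came from a separate litter, so the spread between libraries is a spread between litters.

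Astrocytes take up the glutamate that neurons release, convert it to glutamine and return it, buffer potassium and bicarbonate, and surround blood vessels with endfeet. Their identity genes therefore fall into a cytoskeletal protein (Gfap), glutamate uptake and conversion (Slc1a2, Slc1a3, Glul), water, ion and small-molecule transport (Aqp4, Slc4a4, Gja1), and enzymes or a calcium-binding protein used as markers (Aldh1l1, Aldoc, S100b). In the hypothalamus, astrocytes sit beside the feeding-related neurons and sense nutrients and hormones. Gfap is the classic marker of reactive astrocytes and is known to vary in level between astrocytes far more than the metabolic genes do.

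The libraries held 28245360 to 46067534 estimated counts, and each of the 10 genes had at least 1497 counts in every library. The share of counts on mitochondrially encoded genes was 4.51% to 5.52% in CTRL and 5.71% to 6.75% in Emul. On the length-corrected TPM scale as deposited, they took 12.6% to 15.4% of the total in CTRL and 16.2% to 19.2% in Emul. Levels are therefore given here as nuclear TPM, the TPM of a gene after all genes not encoded in mitochondria were rescaled to the total of a full TPM library, which corrects for transcript length. Differences between the groups are given on the log2 CPM scale after TMM scaling. Of 12 genes that mark the MBH, 11 passed the filter on low counts, among them the neuropeptide gene Npy at a mean nuclear TPM of 241.7 in CTRL and 292.7 in Emul.

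On the length-corrected scale, the metabolic genes were the most abundant. Glul, the glutamine synthetase that converts glutamate to glutamine, had the highest mean nuclear TPM over the 9 libraries (1116, range 1050 to 1185), followed by the glycolytic enzyme gene Aldoc (mean 991, range 896.3 to 1071). Glul was above Aldoc in 9 of 9 libraries. The glutamate transporter genes Slc1a2 (GLT-1; mean 402.7) and Slc1a3 (GLAST; mean 370.2) came next, and Slc1a2 was the higher of the pair in 8 of 9 libraries. Gfap followed with a mean of 257.8 and the range 192.3 to 337.2. Gja1, which encodes the gap junction protein connexin 43, had a mean of 214.9. The bicarbonate cotransporter gene Slc4a4 (mean 152.9) and S100b (mean 150.4), which encodes a calcium-binding protein, could not be ordered, since Slc4a4 was higher in 4 of 9 libraries. Aldh1l1 (mean 48.3), a folate enzyme gene used as a general astrocyte marker, and Aqp4 (mean 43.3), the water channel gene of astrocyte endfeet, were the lowest and were not ordered either, with Aldh1l1 higher in 6 of 9 libraries.

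**Figure D1:**
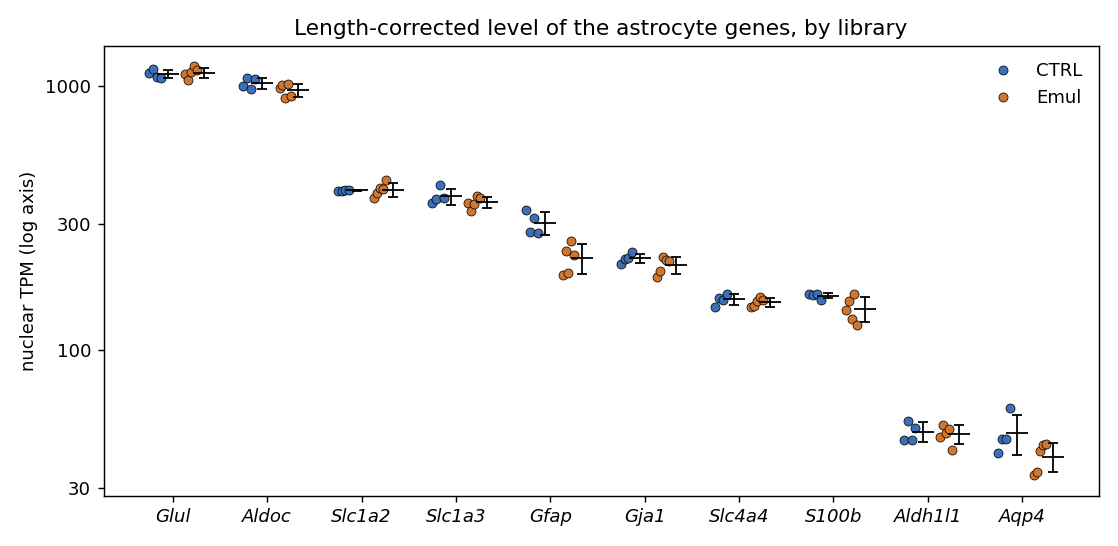
Nuclear TPM of the 10 genes in each library (points) on a log axis, with the mean and SD of each group beside the points (CTRL, n = 4, blue; Emul, n = 5, orange). Glul and Aldoc lie between 896.3 and 1185, Aldh1l1 and Aqp4 between 33.4 and 60.2, and Gfap is the gene whose groups stand apart.

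The comparison of Emul with CTRL addressed whether the astrocyte genes of the offspring differed after maternal emulsifier consumption. Gfap alone among the 10 reached an unadjusted p-value under 0.05 in limma-voom (1 of 10), and it was lower in Emul. Over all genes tested, 15.8% had an unadjusted p-value under 0.05, 8.99% lower and 6.84% higher in Emul, so 1 of 10 was no more than the background share. No gene of the 10 passed the cutoff that combines this p-value with a 1.5-fold change, which 0.469% of all genes passed. With the threshold set at an adjusted p-value of 0.05, the limma-voom fit called 0 of the 10 and 0.117% of all genes, and edgeR called 0 of the 10 and 0.215% of all genes. DESeq2 called 1 of the 10, again Gfap, and 2.69% of all genes with an adjusted p-value. The log2 fold change was below 0 in 7 of the 10 genes, with a median of -0.04, while the median of all genes was 0.00 and 49.2% of them were below 0. The median of the 10 genes stayed between -0.08 and -0.03 in the 21 alternative settings. In bulk tissue, fewer astrocytes and less RNA per astrocyte cannot be told apart.

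**Figure D2:**
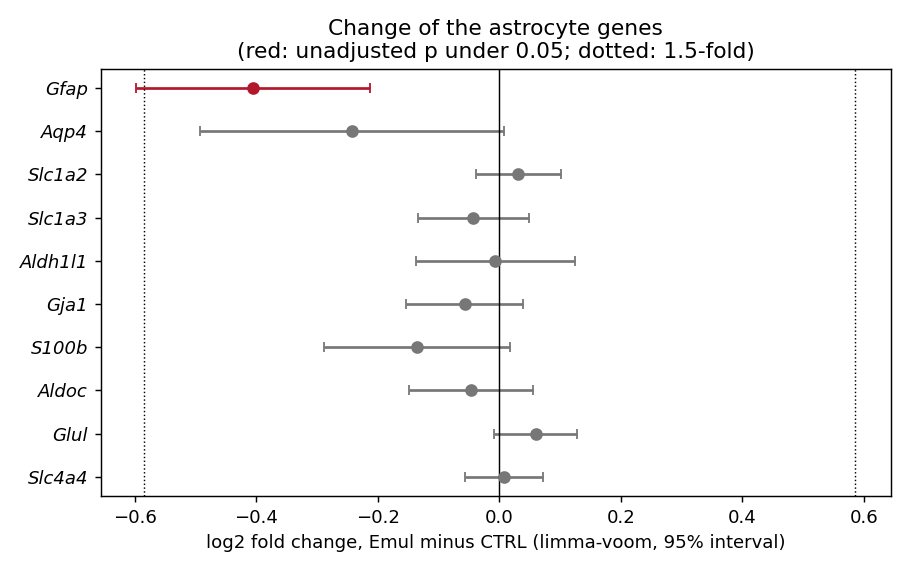
Log2 fold change of each gene, Emul minus CTRL, with its 95% interval from limma-voom. The interval of Gfap (-0.60 to -0.21) lies below 0, and the intervals of the other 9 genes include 0.

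Gfap encodes the intermediate filament protein of astrocytes (chr11:102887336-102900912, minus strand, mm10). Its log2 CPM was 8.51, 8.24, 8.41 and 8.22 in the 4 CTRL libraries and 7.75, 8.08, 7.74, 8.14 and 7.97 in the 5 Emul libraries. Every Emul library lay below every CTRL library, a separation found in 6.6% of all genes. Emul 1 and Emul 3 were the lowest, and Emul 4 came within 0.1 of the lowest CTRL library. On average, log2 CPM was 8.34 ± 0.14 (SD, n = 4) for CTRL against 7.94 ± 0.19 (SD, n = 5) for Emul. The log2 fold change was -0.40 (SE 0.09), a change of -24.5% with a 95% interval from -33.9% to -13.7%. By p-value, Gfap ranked 88 among the 15340 genes (limma-voom p = 0.000613, adjusted p = 0.102, exact two-sided permutation p = 0.016). The smallest p-value that the exact test allows with these group sizes was 0.0079. On the nuclear TPM scale, the level was 302.3 ± 29.2 (SD, n = 4) for CTRL against 222.1 ± 28.4 (SD, n = 5) for Emul. The direction and an unadjusted p-value under 0.05 held in 21 of 21 alternative settings, with adjusted p-values from 0.0244 with DESeq2 to 0.307.

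**Figure D3:**
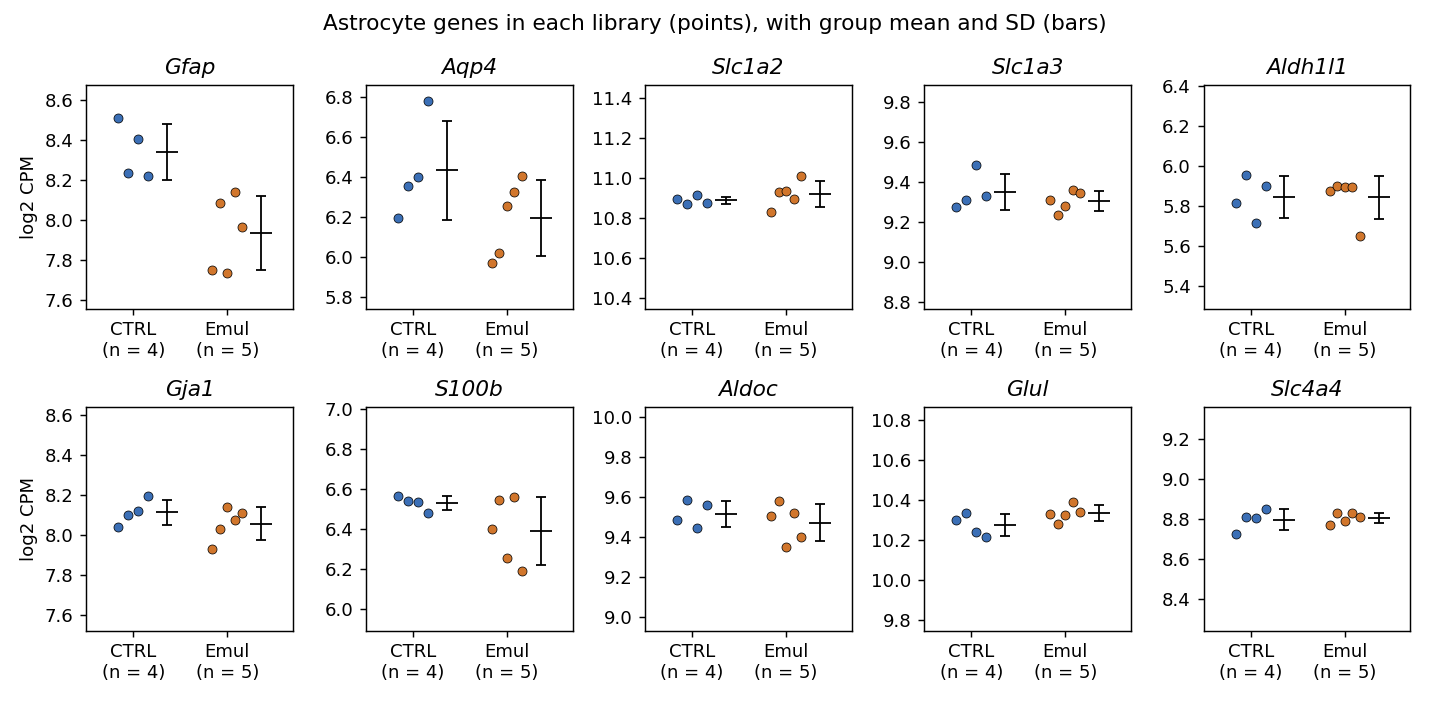
Log2 CPM of the 10 genes in each library (points), with the mean and SD of each group (bars). Each panel spans the same range on the log2 scale. The groups are apart for Gfap and overlap for the other 9 genes.

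Relative to the other 9 genes, Gfap was lower, which largely restates its own difference and is no separate support. Its log2 CPM minus the mean log2 CPM of those genes was between -0.25 and 0.15 in CTRL and between -0.62 and -0.29 in Emul. The groups did not overlap on this scale, and the share of all genes that separate on such a scale was not computed. Glul (1.98 to 2.14 in CTRL, 2.15 to 2.29 in Emul) and Slc4a4 (0.39 to 0.45 and 0.48 to 0.56) were also without overlap, both higher in Emul, and the mean each was set against includes Gfap. The difference of the means for Gfap was -0.36, and it was between -0.42 and -0.29 when each library was left out in turn. Without Gfap, the summed nuclear TPM of the other genes was 3479 to 3642 in CTRL and 3367 to 3617 in Emul, and these ranges overlapped. With Gfap included, the sum was 3816 to 3923 in CTRL and 3567 to 3876 in Emul, also with overlap. The overlap therefore did not come from leaving Gfap out.

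The start of Gfap is shown because it is the gene of the 10 that was called. The bases below run from 250 before the RefSeq start (GRCm38, the mm10 assembly) to 8 after it, at chr11:102897193-102897450 on the minus strand, and the capitals mark the letters TTCNNNGAA, which STAT transcription factors are known to read.
Gfap promoter: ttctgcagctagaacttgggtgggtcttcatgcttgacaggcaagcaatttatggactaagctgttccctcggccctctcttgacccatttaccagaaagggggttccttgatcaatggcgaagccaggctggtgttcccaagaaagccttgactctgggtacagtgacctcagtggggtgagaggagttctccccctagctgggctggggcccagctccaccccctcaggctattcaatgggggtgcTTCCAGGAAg
The match began 2 bases before the RefSeq start, and Gfap-201, the main form, starts 69 bases further downstream in GENCODE. Both strands of 32851 RefSeq promoter windows of 300 bases were searched, and 8.3% of them held these letters. Of the 11 windows found for 9 of the 10 genes, 3 held them, those of Gfap and Slc1a3 and 1 of Aldoc. The letters ACAAT (SOX factors), TTGGCA (an NFI site in part) and TGANTCA (AP-1) were in 31.0%, 14.1% and 7.8% of all windows and were not in that of Gfap. A match describes the letters and does not show that a factor was bound.

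Gfap RNA was mostly of a single form. Gfap-201, the main coding transcript, took 94.3% ± 0.47 (SD, n = 4) of the counts of the gene for CTRL against 93.8% ± 0.41 (SD, n = 5) for Emul. Gfap-202, which has the exon arrangement of the GFAP-delta form, took 5.68% ± 0.46 (SD, n = 4) and 6.23% ± 0.41 (SD, n = 5). The 2 coding transcripts share their first 7 exons and then end differently. The end of the coding sequence of Gfap-202 is given because it sets this form apart, with the last 20 shared bases in lower case and the bases of its own, up to the stop codon, in capitals (GENCODE M21 on mm10, minus strand of chromosome 11).
Gfap-202: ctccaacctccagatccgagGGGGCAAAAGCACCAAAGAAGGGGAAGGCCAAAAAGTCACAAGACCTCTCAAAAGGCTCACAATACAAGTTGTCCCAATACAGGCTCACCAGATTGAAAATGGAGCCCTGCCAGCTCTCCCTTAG
The part of its own is 125 bases long. The share of Gfap-202 was 5.24% to 6.24% in CTRL and 5.72% to 6.67% in Emul, with overlap between the groups (exact two-sided permutation test p = 0.111). The limma diffSplice test gave no difference in usage past the threshold (adjusted p = 0.912). Before scaling to library size, Gfap-201 had 9071 to 13141 counts in CTRL and 7581 to 12008 in Emul, and Gfap-202 had 604 to 819 and 476 to 802.

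The genes of glutamate uptake and conversion did not pass the test, and their intervals were narrow. Slc1a2 encodes GLT-1, the transporter that removes most synaptic glutamate in the mature forebrain (chr2:102658659-102790784). Its log2 CPM was 10.89, 10.87, 10.91 and 10.87 in CTRL and 10.83, 10.93, 10.93, 10.89 and 11.01 in Emul, so Emul held both the lowest and the highest library. The log2 fold change of Slc1a2 was 0.03 with a 95% interval from -0.04 to 0.10 (limma-voom p = 0.349, adjusted p = 0.672, exact permutation p = 0.421). Slc1a3 encodes GLAST, the glutamate transporter that is expressed early by radial glia and astrocytes (chr15:8634124-8710764, minus strand). Its log2 CPM was 9.27, 9.31, 9.48 and 9.33 in CTRL and 9.31, 9.23, 9.28, 9.36 and 9.34 in Emul, and CTRL 3 was the highest. For Slc1a3, the log2 fold change was -0.04 with an interval from -0.13 to 0.05 (limma-voom p = 0.327, adjusted p = 0.654, exact permutation p = 0.444), and it was 0.00 without CTRL 3.

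Glul had the largest positive difference of the 10 genes, which did not pass the test (chr1:153899944-153909723). The log2 CPM of Glul was 10.30, 10.34, 10.24 and 10.22 in CTRL and 10.33, 10.28, 10.33, 10.39 and 10.34 in Emul. The groups overlapped, with CTRL 3 and CTRL 4 below all Emul libraries. It differed by 0.06 on the log2 scale (SE 0.03), a difference of 4.23% with an interval from -0.56% to 9.25% (limma-voom p = 0.0789, adjusted p = 0.377, exact permutation p = 0.103). The unadjusted p-value was under 0.05 in 2 of the 21 alternative settings.

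Slc1a3 had the only transcript of the 10 genes that passed the test of usage, while the total of Slc1a3 did not pass. This test compares the fold change of a transcript with that of the other transcripts of its gene. Slc1a3-201, the main coding transcript, took 98.2% ± 0.18 (SD, n = 4) of the counts for CTRL against 97.4% ± 0.22 (SD, n = 5) for Emul. Slc1a3-202, a transcript annotated as a retained intron, took 1.44%, 1.33%, 1.58% and 1.49% in CTRL and 2.12%, 1.75%, 2.09%, 2.34% and 2.13% in Emul. Every Emul library was above every CTRL library for Slc1a3-202, and how often transcript shares separate this way over all transcripts was not computed. The shares of Slc1a3-202 came from 322 to 414 counts in CTRL and from 437 to 696 in Emul. The retained intron is the one between exons 4 and 5 of Slc1a3-201 (chr15:8649586-8650848, 1263 bases). Slc1a3-202 holds this intron in full within its first exon, which begins 453 bases before exon 4, inside the preceding intron. The end of exon 4 is given in lower case, followed in capitals by the first 20 bases of exon 5 or of the intron.
Slc1a3-201: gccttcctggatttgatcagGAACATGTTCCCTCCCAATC
Slc1a3-202: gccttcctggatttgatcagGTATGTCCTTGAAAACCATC
In limma diffSplice, usage relative to the other transcripts of the gene differed by -0.56 on the log2 scale for Slc1a3-201 (adjusted p = 0.0467). For Slc1a3-202, it differed by 0.53 (adjusted p = 0.0765). These values largely mirror each other and are not separate results. Without CTRL 3, for example, both had an adjusted p = 0.0706 in diffSplice. Slc1a3-201 was thus 1 of the 24 tested transcripts of 8 of the 10 genes to pass an adjusted p-value of 0.05, against 1.07% of all transcripts tested. The call was lost when any 1 of the 9 libraries was left out, with adjusted p-values from 0.0641 to 0.233, while the usage difference stayed between -0.60 and -0.48. The exact two-sided permutation test over the libraries gave p = 0.0079, the smallest possible, for the share of Slc1a3-201 and p = 0.016 for that of Slc1a3-202, which was chosen after its values were seen. Retained-intron transcripts as a class did not move this way, since 41.7% of the 7942 tested had a usage difference above 0, with a median of -0.06.

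**Figure D4:**
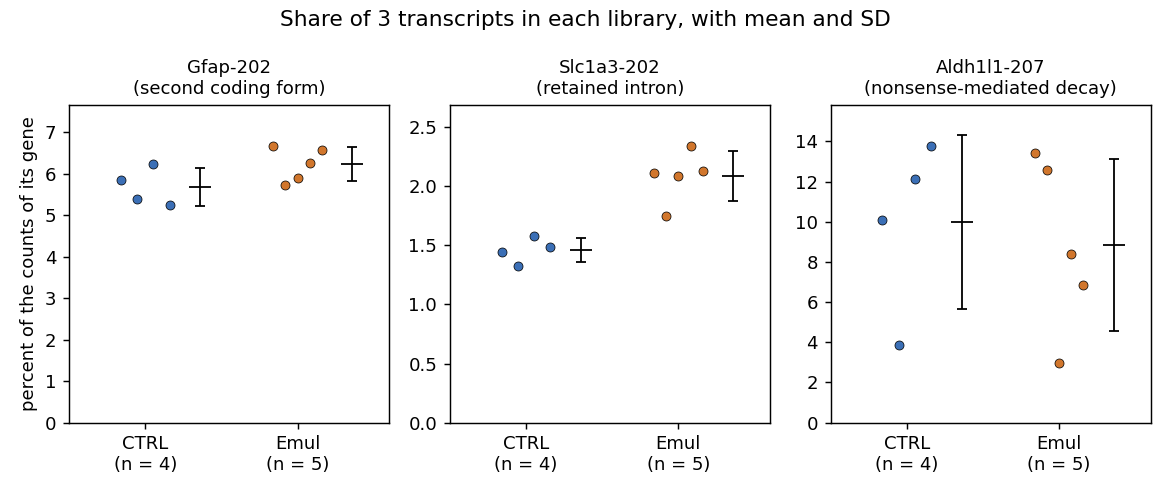
Share of the counts of its gene taken by Gfap-202, Slc1a3-202 and Aldh1l1-207 in each library (points), with the mean and SD of each group (bars); each axis starts at 0. The groups are apart for Slc1a3-202 (1.33% to 1.58% in CTRL, 1.75% to 2.34% in Emul) and overlap for the other two.

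The genes of water, ion and small-molecule transport overlapped between the groups. Aqp4 had the second largest negative difference of the 10 and the widest spread. The log2 CPM of Aqp4 was 6.20, 6.36, 6.40 and 6.78 in CTRL and 5.97, 6.02, 6.26, 6.33 and 6.41 in Emul. CTRL 4 was above the rest, and Emul 1 and Emul 2 were below all CTRL libraries. Aqp4 differed by -0.24 on the log2 scale (SE 0.11) with a 95% interval from -0.49 to 0.01 (limma-voom p = 0.0563, adjusted p = 0.332, exact permutation p = 0.175). The unadjusted p-value was under 0.05 in 8 of 21 alternative settings, and the fold change was -0.12 without CTRL 4. The within-group SD of Aqp4 was 0.218 on the log2 scale, at the percentile 87.2 of all genes, and that of Gfap was 0.168, at the percentile 78.8.

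Gja1 (chr10:56377330-56402513) had a log2 CPM of 8.04, 8.10, 8.12 and 8.20 in CTRL and 7.93, 8.03, 8.14, 8.08 and 8.11 in Emul. Emul 1 and Emul 2 were again the lowest, and the log2 fold change was -0.06 (95% interval -0.15 to 0.04, limma-voom p = 0.224, adjusted p = 0.562, exact permutation p = 0.325). Slc4a4 (chr5:88886818-89239653) was the most even of the 10, with a within-group SD of 0.039 on the log2 scale, at the percentile 6.9 of all genes. Its log2 CPM was 8.73, 8.81, 8.81 and 8.85 in CTRL and 8.77, 8.83, 8.79, 8.83 and 8.81 in Emul. For Slc4a4, the log2 fold change was 0.01 with an interval from -0.06 to 0.07 (limma-voom p = 0.786, adjusted p = 0.923, exact permutation p = 0.762), and its sign differed in 3 of the 21 alternative settings.

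Among the marker enzymes and S100b, no gene passed the test. S100b (chr10:76253853-76261159) was even in CTRL and uneven in Emul. The log2 CPM of S100b was 6.56, 6.54, 6.53 and 6.48 in CTRL and 6.40, 6.55, 6.26, 6.56 and 6.19 in Emul, where Emul 1, Emul 3 and Emul 5 were below all CTRL libraries and the other two were among them. The SD was 0.03 (n = 4) in CTRL and 0.17 (n = 5) in Emul, and the log2 fold change was -0.14 (SE 0.07, 95% interval -0.29 to 0.02, limma-voom p = 0.0772, adjusted p = 0.374, exact permutation p = 0.19). The unadjusted p-value was under 0.05 in 3 of 21 alternative settings. S100b overlaps Dip2a on the other strand, which had 4080 to 6334 counts. The libraries were stranded, but whether kallisto used the strand is not given in the sources used here.

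Aldoc (chr11:78322968-78327781) had a log2 CPM of 9.49, 9.58, 9.44 and 9.56 in CTRL and 9.51, 9.58, 9.35, 9.52 and 9.40 in Emul. The 2 lowest libraries, Emul 3 and Emul 5, were also the 2 lowest for S100b. Aldoc had a log2 fold change of -0.05 (95% interval -0.15 to 0.06, limma-voom p = 0.343, adjusted p = 0.667, exact permutation p = 0.437). Aldoc RNA was split between Aldoc-202 with 79.3% ± 0.86 (SD, n = 4) for CTRL against 78.9% ± 0.95 (SD, n = 5) for Emul, and Aldoc-201 with 19.9% ± 1.06 (SD, n = 4) and 20.5% ± 0.97 (SD, n = 5).

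Aldh1l1 (chr6:90486427-90600203) was the least different of the 10. Its log2 CPM was 5.81, 5.95, 5.72 and 5.90 in CTRL and 5.88, 5.90, 5.90, 5.90 and 5.65 in Emul, and 4 of the 5 Emul libraries lay between 5.88 and 5.90. Aldh1l1 had a log2 fold change of -0.01 with an interval from -0.14 to 0.12 (limma-voom p = 0.920, adjusted p = 0.974, exact permutation p = 0.937), and its sign differed in 5 of the 21 alternative settings. Of the transcripts named here, those of Aldh1l1 varied most between libraries. The main coding form Aldh1l1-201 took 78.4% to 87.8% of the counts in CTRL and 76.3% to 86.9% in Emul, and Aldh1l1-207, annotated for nonsense-mediated decay, took 3.87% to 13.8% and 2.98% to 13.4%. Slc4a4, by contrast, kept 89.3% ± 0.22 (SD, n = 4) and 89.3% ± 0.87 (SD, n = 5) of its counts on Slc4a4-207.

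Some of the other genes of astrocytes were called lower, and 0 passed an adjusted p-value of 0.05 in limma-voom. Of 40 further astrocyte genes, all tested, 5 were lower and 0 higher at an unadjusted p-value under 0.05 in limma-voom. Over all genes, 8.99% were lower and 6.84% higher. The log2 fold changes of the 40 genes ran from -0.24 to 0.33, with a median of -0.03. The smallest adjusted p-value was 0.112, that of Fgfr2. Fgfr2, a fibroblast growth factor receptor gene, had a log2 fold change of -0.24 (SE 0.06; nuclear TPM 37.8 to 42.8 in CTRL, 29.2 to 37.2 in Emul). Ntsr2, the neurotensin receptor gene of astrocytes, had -0.12 (SE 0.03; nuclear TPM 259.8 to 297.7 and 234.9 to 246.8), also without overlap. On the log2 CPM scale, 2 of the 40 genes were without overlap, against 6.6% of all genes. Slc38a3 (-0.13), which exports glutamine from astrocytes, Sox9 (-0.16) and Bcan (-0.10) were the other genes called lower. The most abundant genes of the list, the lipoprotein gene Apoe (log2 fold change 0.05, SE 0.05) and Sparcl1 (0.05, SE 0.03), were not called.

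Of 26 genes known to rise in reactive astrocytes, 22 were tested, 2 were lower and 0 higher, which is close to the background of 8.99% lower over all genes. These were Aspg (log2 fold change -0.27, SE 0.10) and the complement gene C4b (-0.14, SE 0.06). Vim, another intermediate filament gene and the most abundant of the list, had -0.09 (SE 0.07) and was not called. The median log2 fold change of the 22 genes was -0.04. Among the genes of endfeet and the dystrophin complex, Sntb1, which encodes a syntrophin of that complex, was higher (0.32, SE 0.10). Kcnj10, the potassium channel gene of endfeet, had 0.01 (SE 0.06).

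Of the 17 other genes of the glutamate-glutamine cycle, 2 were lower and 1 higher, near the background of 8.99% lower and 6.84% higher. The glutamine carriers Slc38a3 (log2 fold change -0.13, SE 0.04) and Slc38a2 (-0.15, SE 0.06) were lower, and the neuronal vesicular glutamate transporter Slc17a6 was higher (0.29, SE 0.10). Got1 and Glud1, the most abundant, had 0.05 (SE 0.03) and 0.00 (SE 0.03). Of 18 transcription factors and signalling genes that govern astrocytes, 17 were tested, 4 were lower and 0 higher, against 8.99% and 6.84% of all genes. The 4 genes were Sox9 (-0.16, SE 0.05), Nfib (-0.12, SE 0.04), Notch1 (-0.13, SE 0.06) and Id4 (-0.16, SE 0.07). Stat3, the most abundant of these, had -0.05 (SE 0.04). The smallest adjusted p-value in any of these lists was 0.112. The lists share genes, so their counts are not separate. Slc38a3 and Sox9 are also among the further astrocyte genes, and Slc17a6 is also a neuron marker.

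Among the markers of other cell types, those of oligodendrocytes, the myelin-forming cells, were called most often. Of 12 oligodendrocyte markers, 10 were lower in Emul (8.99% of all genes) and 0 higher, with a median log2 fold change of -0.26, among them the myelin genes Mbp (-0.29, SE 0.09), Mag (-0.31, SE 0.10) and Cldn11 (-0.32, SE 0.11). None of the 12 passed an adjusted p-value of 0.05 in limma-voom, where the smallest was 0.173. Their summed nuclear TPM was 15970 to 19970 in CTRL and 12240 to 16900 in Emul, with overlap. The count of 10 dropped to 3 without CTRL 1, to 5 without CTRL 2 and to 6 without Emul 3. Of 14 neuron markers, 6 were higher (6.84% of all genes) and 1 was lower (Slc32a1, -0.27, SE 0.12), with a median of 0.07. The log2 fold change was below 0 in 3 of the 14. None of the 14 passed an adjusted p-value of 0.05 in limma-voom, where the smallest was 0.116. The count of neuron markers called lower was 3 without CTRL 4, without Emul 1 or without Emul 4. It was 0 without any 1 of the other libraries. Among those that were higher, Rbfox3 (0.12, SE 0.03) and Stmn2 (0.17, SE 0.04) did not overlap between the groups. They were 2 of the 14, against 6.6% of all genes without overlap. Of 8 markers of oligodendrocyte precursors, 2 were lower (Olig1, -0.15, SE 0.07; Neu4, -0.19, SE 0.09), against 8.99% of all genes. Of 10 endothelial and mural markers, 1 was lower (Slco1a4, -0.25, SE 0.08), which is close to the background. Of the 12 markers of tanycytes, 10 of ependymal cells, 10 of microglia and 11 tested of the MBH, limma-voom called 0 at an unadjusted p-value under 0.05. The smallest adjusted p-values of these 4 lists were between 0.333 and 0.409. The part of these other cell types, and of the higher mitochondrial share, in the lower Gfap level was not tested.

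**Figure D5:**
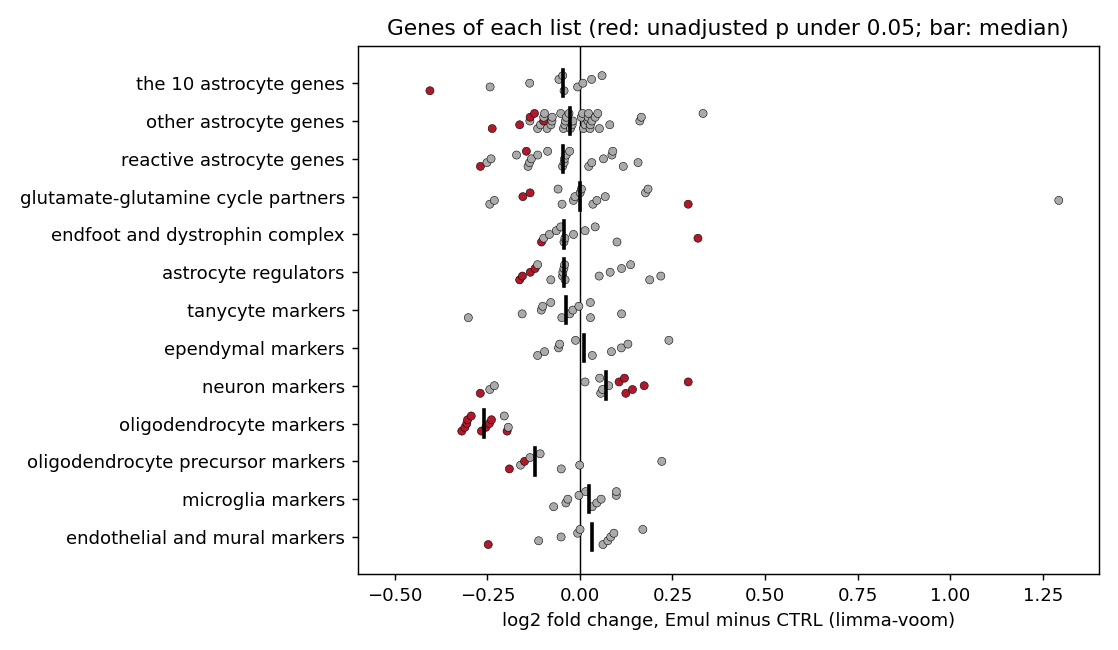
Log2 fold change, Emul minus CTRL, of each tested gene (points) in 13 lists, with the median of each list (bars) and red points for an unadjusted p-value under 0.05. Gfap is the leftmost point, oligodendrocyte markers lie between -0.32 and -0.19, and the far right point is Slc17a7 (1.29, SE 1.06), which was not called.

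Across the 9 libraries, the mean of the 10 genes, each centred on its own mean log2 CPM, was between 0.02 and 0.08 in CTRL and between -0.10 and 0.04 in Emul, with Emul 4 inside the range of CTRL. The 10 genes did not vary as a unit, since the median Pearson correlation over their 45 pairs was 0.04, from -0.65 to 0.88 over the 9 libraries. Among 11258 other genes with a mean log2 CPM over 3, those with a pattern most like this mean were Atp6v0a2, Zadh2, Mtmr10, Zfp60, Cgn, Csad, Tmem200c, Nacad, Man1b1 and Bmp2k, with Pearson correlations from 0.91 to 0.97. These values describe the 9 libraries, which share the difference between the groups, and they are the highest of many by selection.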

How the data were processed

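RNAseq was done on the MBH of 9 male mice, 1 per litter. The authors ran kallisto 0.46.1 on mm10 and deposited estimated counts (expected counts, not normalized) and TPM values per transcript, and a table of log2 CPM values by gene symbol. FastQC 0.11.9 and edgeR 3.40.1 are also named in the submitters' processing notes. How that table was summarised to genes is not given in the sources used here.

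Transcripts were matched to GENCODE M21 (97.8% matched). Gene counts are sums of the estimated counts of their transcripts, and whole-number roundings of them went into edgeR and DESeq2. Between 1.20% and 1.27% of counts had no gene and were left out. The filter asked for a CPM above 1 in 4 or more libraries. Emul and CTRL were compared in limma-voom (limma 3.58.1, edgeR 4.0.16, R 4.3.3) after TMM scaling, without covariates. P-values were adjusted over all genes by the Benjamini-Hochberg method, and a called gene has an unadjusted p-value under 0.05. Log2 CPM values of single libraries used a prior count of 2. Transcript usage was tested by diffSplice on transcripts with a CPM above 1 in 4 libraries, adjusted over all transcripts tested. Shares and log2 CPM values of single genes were compared by an exact two-sided permutation test over the libraries. DESeq2 was version 1.42.0. The tests were checked on simulated data.

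The 10 genes and the other lists were chosen with earlier results of these data known. Named are all 10 genes, genes of the other lists from among the 3 with the smallest p-values and the 2 with the highest nuclear TPM (all of them where a count was 5 or less), transcripts with at least 5% of the counts of their gene, and the 10 most similar genes. Slc17a7 was named after its value was seen. Nuclear TPM, the counts of the lists in other settings and the level of Gfap relative to the other 9 genes were added after seeing the data. Counting error is small for the totals of the 10 genes at this depth, and the spread between litters sets their precision. Minor transcripts rest on fewer counts, such as 67 to 355 for Aldh1l1-207. The uncertainty in dividing counts among transcripts of a gene was not measured. No batch or date is given. The result of 1 gene and 1 sequence are not reported here.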

Additional observations from a re-analysis of the deposited data

Results flagged for a closer look

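Single libraries far from the rest of their group by Dixon's test were looked for in 54 groups of values of the 10 genes and their transcripts. There were 3 such libraries, where chance gives about 1 in 20 groups, or 2.7. For Aldh1l1, the log2 CPM of Emul 5 was 5.651, with the rest of the Emul group at 5.876 to 5.9. For the share of Aldh1l1-201, CTRL 2 had 87.78%, and the other CTRL libraries lay between 78.37% and 79.57%. For the share of Glul-201, CTRL 2 had 99.26%, and the others lay between 99.36% and 99.38%.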

How the results depend on the processing

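The fold change of Gfap kept its direction and an unadjusted p-value under 0.05 in 21 of 21 alternatives, from -0.46 to -0.35, and the median of the 10 genes stayed below 0 in each of them. Of 210 recomputed fold changes of the 10 genes, 9 had another sign, 5 of Aldh1l1, 3 of Slc4a4 and 1 of Slc1a3, and no gene called in the main comparison was among these. The count of called genes, 1 in the main comparison, was 2 with sample quality weights, 3 with library size alone, 2 without a filter on low counts, 2 with lengthScaledTPM and between 1 and 3 when each library was left out. The count of transcripts with an adjusted usage p-value under 0.05, 1 in the main comparison, was 2 with a transcript CPM above 0.5, 0 with library size alone (adjusted p = 0.0850 for Slc1a3-201 in limma) and 0 whenever a library was left out. The cause was not tested. Whether the replicate numbers of the labels mark pairs is not settled. The deviations of same-numbered libraries correlated between -0.163 and 0.021, and in 0 of 4 cases was the own number the best match. So few values show no sign of pairs but cannot exclude them. The log2 CPM of Aqp4 rose in the order of the numbers in both groups. With the replicate block, 2 of the 10 genes were called (Gfap and Aqp4) and 0 transcripts. The log2 fold change of Aqp4 was then -0.30 (SE 0.05, against 0.11 in the main comparison). Number 5 occurs only in Emul, so Emul 5 had no part in the fold changes with the block. Leaving out Emul 5 without a block gave -0.29 for Aqp4 (SE 0.12). With the block, the log2 fold change of Gfap was -0.41 (SE 0.11, against 0.09 in the main comparison). The count of 40 further astrocyte genes called lower, 5 in the main comparison, was 12 with library size alone, a setting that moved the median of all genes by -0.03, and 8 without Emul 2. In the authors' log2 CPM table, Gfap differed by -0.41, without overlap between the groups.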
